A study of Mus musculus with 24 samples.

Results

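Alternative exons that keep the reading frame and whose inclusion is about the same in wild-type (WT) stem cells and WT neurons were compared between WT and slow/slow mouse cells along neural differentiation. Inclusion is given as PSI (percent spliced in), the percentage of a gene's transcripts that contain the exon, estimated from reads over its splice junctions. Of 54141 annotated exon events, 26187 had enough reads in all 24 samples. Of the latter, 1818 had a mean PSI of 10 to 90 in WT embryonic stem cells (ESCs) and were not microexons. The 598 exons described here were those of the 1818 whose length is divisible by 3 and whose mean PSI in WT neurons lay within 15 points of that in WT ESCs. The exons were thus chosen by their WT ESC and WT neuron values, and no change between these 2 groups was tested.

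All cells came from E14 mouse ESCs. WT cells carried unmodified Polr2a, which encodes the largest, catalytic subunit of polymerase II. The slow/slow cells carried an arginine-to-histidine substitution on both alleles, made by gene targeting, and the number of clones was not stated in the sources used here. Poly(A)-selected RNA was sequenced in 3 replicates of each genotype at 4 stages: ESCs kept in 2i medium, neural progenitor cells (NPCs) at day 7 of monolayer differentiation, cells at day 10 purified for the surface antigen PSA-NCAM, and mature neurons that had been replated at day 7 and grown for 14 more days. WT and slow/slow ESCs were plated at different densities for differentiation, so that plating density and genotype cannot be told apart after the ESC stage. The substitution itself is not visible in the deposited tables, so the genotype labels were not checked against it.

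Several library features bear on the results. Total gene counts ranged from 32974432 to 104466886 per sample. The stage labels did not map onto single cell types: the WT NPC libraries held little of the progenitor transcription factor Pax6 (4.07, 4.18 and 4.63 CPM, a gene's count scaled to library size, against 36.4, 42.4 and 43.8 in slow/slow NPCs). The summed level of 6 pluripotency markers was 2190 to 2270 CPM in WT and 1430 to 1640 CPM in slow/slow NPCs, where 4 of the 6 were lower and none of the 6 higher, while Pou5f1 alone was at 620, 637 and 660 CPM in WT and 791, 701 and 716 CPM in slow/slow NPCs. The summed level of 4 progenitor markers was 37.5 to 38.9 CPM in WT NPCs and 124 to 166 in slow/slow NPCs. In neurons the sum of 6 neuronal markers was 3430 to 3740 CPM in WT and 2740 to 2910 in slow/slow cells, and that of 4 mesenchymal markers was 206 to 259 and 542 to 575 CPM. The PSA-NCAM+ libraries numbered 1 of both genotypes stood apart, with the collagen gene Col1a2 at 242 and 451 CPM against 21.8 to 49.5 in the other 4 libraries. For PSA-NCAM+ cells the numbers of called exons, host genes and regulators, the gene groups, the intron medians and the genotype differences of called exons that are named are therefore given with and without them. Other values from that stage include them. In bulk RNA, fewer cells of a type and less RNA per cell cannot be told apart.

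A cassette exon is either spliced into the mRNA or skipped together with its flanking introns. If its length is a multiple of the codon length, both forms keep the downstream reading frame. Where such an exon is wholly coding and has no in-frame stop codon, the proteins differ by an internal stretch of residues. The choice can be made while the polymerase is still transcribing. Regulatory proteins, and the time that splice sites are exposed before competing sites appear, are known to affect it.

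The 598 exons lay in 521 genes, 62 of which held at least 2 of the exons. They were 18 to 2169 nucleotides long, with a median of 102 and quartiles of 69 and 146, and 394 were simple cassette events by the deposited classification. Their median PSI in WT ESCs was 58.9. The median lengths of the upstream and downstream introns, measured to the nearest annotated neighbouring exon, were 1774 and 2113 bases, and the median sum was 4705 bases. For the 713 stable exons that shift the frame, the median exon length was 109 and the median summed intron length 4621 bases. For the 305 frame-preserving exons that moved by more than 15 points between WT ESCs and neurons these medians were 84 and 4806 bases. Of the 598 exons, 521 (87.1%) could be matched by gene, length and flanking intron lengths to a GENCODE exon of GRCm38. The exon was wholly coding in 401 of them, partly coding in 51, untranslated in 54 and in a transcript with no coding sequence in 15. An in-frame stop codon was present in 13 of the 401. Of the exons named below, that of Dnajc5 was partly coding, and that of Huwe1 lay in a transcript with no coding sequence. Those of Raly, Phkb and Eme1 were not matched.

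Exons on which the results turn are shown here with their transcript sequence. Capitals mark the alternative exon and the 12 lower-case bases on each side are the ends of the neighbouring exons. The sequences and coordinates are those of GENCODE M21 transcripts on GRCm38. The first 6 exons differed in 1 direction at 3 or 4 stages, and the last 4 differed in opposite directions between stages. The Bptf exon was matched on 1 flanking intron and the others on both.
Bptf, chr11:107095002-107095190, minus strand: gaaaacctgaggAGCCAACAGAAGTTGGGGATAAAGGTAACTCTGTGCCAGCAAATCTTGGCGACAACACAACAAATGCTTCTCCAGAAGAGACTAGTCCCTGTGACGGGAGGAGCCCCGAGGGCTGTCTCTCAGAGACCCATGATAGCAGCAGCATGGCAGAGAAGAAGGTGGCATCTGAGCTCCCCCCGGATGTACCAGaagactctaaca
Nfya, chr17:48398985-48399065, minus strand: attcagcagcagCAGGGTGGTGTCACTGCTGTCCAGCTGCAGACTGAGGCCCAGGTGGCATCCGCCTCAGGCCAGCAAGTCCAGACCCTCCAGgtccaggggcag
Syne2, chr12:76100028-76100096, plus strand: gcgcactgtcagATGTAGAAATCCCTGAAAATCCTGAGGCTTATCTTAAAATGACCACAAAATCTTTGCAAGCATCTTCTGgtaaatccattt
Rai14, chr15:10589259-10589345, minus strand: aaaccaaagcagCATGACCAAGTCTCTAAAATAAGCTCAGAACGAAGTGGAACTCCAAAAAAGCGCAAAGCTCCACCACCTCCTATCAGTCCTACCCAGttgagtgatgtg
Max, chr12:76961263-76961289, minus strand: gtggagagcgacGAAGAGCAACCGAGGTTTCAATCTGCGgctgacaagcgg
Clstn1, chr4:149626087-149626116, plus strand: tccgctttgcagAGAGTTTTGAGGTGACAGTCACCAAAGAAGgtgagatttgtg
Ktn1, chr14:47725929-47726000, plus strand: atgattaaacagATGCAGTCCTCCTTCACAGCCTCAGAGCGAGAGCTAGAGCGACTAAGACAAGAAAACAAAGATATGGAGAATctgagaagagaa
Ivd, chr2:118877661-118877765, plus strand: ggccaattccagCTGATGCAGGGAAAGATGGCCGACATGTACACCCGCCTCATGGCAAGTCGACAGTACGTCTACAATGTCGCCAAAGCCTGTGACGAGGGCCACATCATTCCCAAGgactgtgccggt
Sec16a, chr2:26413679-26413738, minus strand: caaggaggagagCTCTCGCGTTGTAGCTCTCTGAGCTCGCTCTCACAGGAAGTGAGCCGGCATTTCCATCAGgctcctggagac
Add3, chr19:53244310-53244405, plus strand: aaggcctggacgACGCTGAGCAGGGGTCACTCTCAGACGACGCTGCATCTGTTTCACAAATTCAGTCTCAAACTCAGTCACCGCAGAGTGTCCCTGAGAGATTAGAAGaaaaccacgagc
Every exon shown is wholly coding in the transcript used and has no in-frame stop codon. Inclusion adds 63 codons to Bptf, 27 to Nfya, 23 to Syne2, 29 to Rai14, 9 to Max, 10 to Clstn1, 24 to Ktn1, 35 to Ivd, 20 to Sec16a and 32 to Add3. The GC content of these 10 exons ran from 36.2% in Syne2 to 65.4% in Nfya.

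An exon was called different between 2 groups if the mean PSI differed by more than 10 points and the posterior probability of a difference in that direction, from the inclusion and exclusion reads of the 3 and 3 replicates, was above 0.95. Exons with low coverage or unbalanced junctions in any of the 6 samples were not tested. Of the 598 exons, 415 could be tested between genotypes at all 4 stages, 482 at 1 stage or more and 116 at none. Of the 415, 181 (43.6%) were called at 1 or more stages, against 46.8% of 1201 alternative exons and 4.69% of 17547 exons of any kind that were tested at all 4 stages. The 181 included 49 called at 2 stages, 9 at 3 and 8 (1.93%) at all 4, with 1.25% of the alternative exons called at all 4. At the other end, 62 of the 415 exons (14.9%) stayed within 5 points between genotypes at every stage, as did 12.8% of the alternative exons and 87.6% of all exons. These shares were thus near those of alternative exons in general. With the exons tested at fewer stages, 195 of the 598 were called at 1 or more stages.

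**Figure D1:**
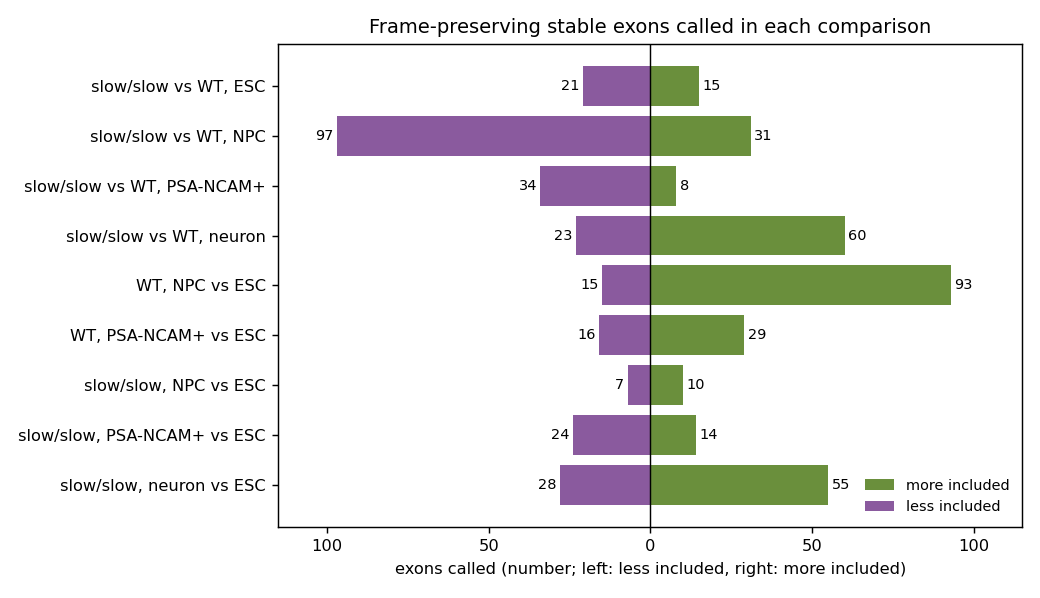
Number of frame-preserving stable exons called more included (bars to the right) or less included (bars to the left) in each of 9 comparisons, with the stage or genotype at the left. The longest bars are 97 exons less included in slow/slow than in WT NPCs and 93 exons more included in WT NPCs than in WT ESCs.

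The PSI values of the NPC samples had no part in the choice of exons, while their read coverage had. The NPC comparison gave the highest number of calls between genotypes. Of 450 exons tested in NPCs, 31 were more included and 97 less included in slow/slow cells, a total of 128 or 28.4%. Among all exons tested at this stage 2.89% were called, 0.802% as more and 2.09% as less included. Among all alternative exons with a WT ESC PSI of 10 to 90 the share was 30.3%, with 8.02% more and 22.3% less included. Among the frame-shifting stable exons it was 25.3%, with 30 more and 92 less included. The lean towards less inclusion was thus also seen in both of these sets. The median difference was -2.74 points over the 450 exons and 0 over all exons. The median PSI of the 598 exons was 64.1 to 65.8 in the WT NPC samples and 58.1 to 58.8 in the slow/slow NPC samples, and the ranges did not overlap. With limma on log-odds of inclusion, 109 of the 450 exons passed an FDR of 0.05 and 10 points, against 2.34% of all exons.

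Among the called exons, those that fell most in slow/slow NPCs were in Bptf, Ktn1 and Nfya. Bptf encodes the histone-reading subunit of the NURF chromatin remodeller, and its exon of 189 nucleotides (chr11:106956316-106956504, minus strand, mm9) had PSI values of 86.8, 88.6 and 88.9 in WT NPCs and 12, 10.3 and 18.4 in slow/slow NPCs. The groups were far apart, and the difference was -74.5 ± 2.58 points (SE, n = 3 and 3; limma adjusted p = 0.000553). Nfya encodes a subunit of the CCAAT-box binding factor NF-Y. Its exon (chr17:48538310-48538390, minus strand, mm9) was at 87.6, 92.4 and 86.5 in WT and 36.2, 38.1 and 37.1 in slow/slow NPCs, a difference of -51.7 ± 1.91 points (limma adjusted p = 0.000796). In Ktn1, which encodes the kinesin-binding membrane protein kinectin, the WT values were 70.6, 70.9 and 75.3 and the slow/slow values 20.3, 23.3 and 16.2 (chr14:48345604-48345675, plus strand, mm9). The difference was -52.3 ± 2.56 points (limma adjusted p = 0.000553). A second exon of Ktn1 among the 598 was also less included in slow/slow NPCs.

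Exons of Odf2l and Kif13a were among the called exons that rose most in slow/slow NPCs. The exon of Odf2l (chr3:144789987-144790115, plus strand, mm9) was at 58.8, 44.3 and 44.7 in WT and 83.0, 83.3 and 81.8 in slow/slow NPCs. The exon of Kif13a, a kinesin motor gene (chr13:46856032-46856136, minus strand, mm9), was at 30.8, 38.0 and 40.1 and at 65.2, 66.3 and 59.8. Neither exon was called at another stage.

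The 97 exons less included in slow/slow NPCs had median PSI values in WT cells of 49.98, 71.6, 59.2 and 52.8 in ESCs, NPCs, PSA-NCAM+ cells and neurons. In slow/slow cells the medians were 39.3, 41.1, 42.2 and 54.2. Inclusion of these exons was thus highest at the NPC stage in WT cells and not in slow/slow cells. The NPC values chose these 97 exons, so their NPC medians are a description. Of the 97, 13 were also called less included in slow/slow ESCs. The same held for 19 at the PSA-NCAM+ stage and for 8 in neurons, where 17 others were called more included.

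The change from ESCs to NPCs within each genotype showed the same stage from another side. The WT ESC values that enter here also chose the exons, and the WT NPC values enter the comparison above. In WT cells 93 of 454 exons rose and 15 fell, 108 in all or 23.8%, against 2.38% of all exons (1.78% rising and 0.601% falling) and 27.9% of all alternative exons. In slow/slow cells 10 of 438 rose and 7 fell, 17 in all or 3.88%, against 0.738% of all exons (0.394% and 0.344%) and 7.81% of alternative exons. Of the alternative exons 22.3% rose and 5.64% fell in WT cells, and 4.61% rose and 3.2% fell in slow/slow cells. Of the 93 exons that rose in WT cells, 90 were tested in slow/slow cells. There 5 rose, none of the 90 fell, and 64 had a positive difference. The median change of the 90 was 14.9 points in WT, where they had been chosen, and 2.50 points in slow/slow cells. The genotype by stage interaction between NPCs and ESCs was then tested with limma, a test added after these counts had been seen. It passed an FDR of 0.05 for 25 of 415 exons, against 0.484% of all exons tested, and all 25 had a slow/slow effect that was more negative in NPCs. The share of alternative exons that passed this test is not given here. The WT ESC samples in this test had also helped to choose the exons. Without read-based weights 0 of the 415 exons passed, with 141 at an unadjusted p under 0.05 in the weighted fit.

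The called exon that rose most in WT cells from ESCs to NPCs was that of Ktn1, at 27.4, 30.5 and 27.4 in WT ESCs and above 70 in all WT NPC samples. The change was 43.9 ± 1.84 points in WT cells and -2.79 ± 2.20 points in slow/slow cells, which started at 24.3, 21.6 and 22.3. The exon of Kif23, the gene of a mitotic kinesin needed for cytokinesis (312 nucleotides, chr9:61771712-61772023, minus strand, mm9), was at 36.9, 37.1 and 34.0 in WT ESCs and 77.2, 73.8 and 76.8 in WT NPCs. In slow/slow cells it went from 38.9, 37.8 and 41.1 to 49.5, 53.2 and 53.5. The changes were 39.9 ± 1.49 and 12.8 ± 1.62 points. Among the called exons that fell most in WT cells was that of Odf2l, from 81.8, 95.6 and 83.3 in ESCs to the NPC values above.

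**Figure D2:**
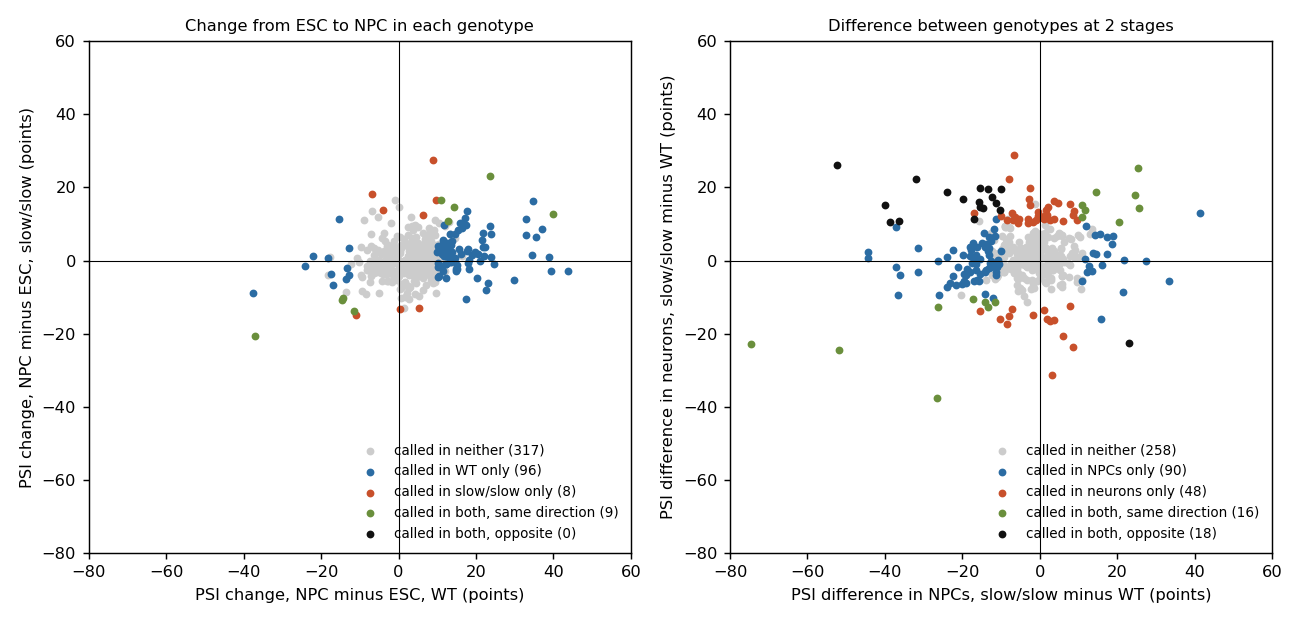
Each point is 1 exon. Left, PSI change from ESCs to NPCs in WT (x axis, points) against slow/slow cells (y axis, points). Right, PSI difference between slow/slow and WT cells in NPCs (x axis) against neurons (y axis). Colours give the calls, with 430 exons tested on both axes of each panel. On the left 96 exons were called in WT only and 9 in both genotypes, and on the right 18 exons were called in both stages with opposite sign, 17 of them less included in slow/slow NPCs and more included in slow/slow neurons.

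In mature neurons the direction was the other way. Of 453 exons tested, 60 were more included and 23 less included in slow/slow cells, a total of 83 or 18.3%, against 3.36% of all exons (1.96% more and 1.4% less included), 20.4% of all alternative exons and 11.9% of the frame-shifting stable exons. Of the alternative exons 13.8% were more and 6.64% less included, and of the frame-shifting stable exons 42 and 16 were. The WT neuron samples of this comparison had helped to choose the exons. The median difference was 1.06 points over the 453 exons and 0.0033 over all exons. The 60 exons had a median PSI of 61.2 in WT and 78.2 in slow/slow neurons. The limma fit gave 72 exons at an FDR of 0.05 and 10 points, against 3.08% of all exons.

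Among the called exons, the largest rises in slow/slow neurons were in Dnajc5, Ktn1 and Max. Dnajc5 encodes a chaperone of synaptic vesicles, and its exon (chr2:181283631-181283705, plus strand, mm9) was only partly coding. It was at 18.8, 19.65 and 18.9 in WT and 46.4, 47.8 and 50.1 in slow/slow neurons. The difference was 29.0 ± 1.10 points (limma adjusted p = 4.87e-05), and at the other 3 stages it stayed within 10 points. The largest falls among the called exons were in Syne2, Fn1 and Nfya. The Fn1 exon (273 nucleotides, chr1:71660337-71660609, minus strand, mm9) belongs to the gene of the extracellular matrix protein fibronectin. It was at 87.0, 88.4 and 84.2 in WT and 54.3, 49.9 and 61.1 in slow/slow neurons, a difference of -31.4 ± 3.50 points (limma adjusted p = 0.000772). The sum of 4 mesenchymal markers was higher in the same slow/slow libraries, and the mesenchymal marker Lum was at 0.691 to 0.780 CPM in WT and 34.0 to 34.8 CPM in slow/slow neurons. Its part in the Fn1 result was not tested.

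From ESCs to neurons within slow/slow cells 55 of 433 exons rose and 28 fell, 83 in all or 19.2%, against 3.6% of all exons (1.7% rising and 1.9% falling), 33.2% of all alternative exons and 16.9% of the frame-shifting stable exons. Of the alternative exons 18.1% rose and 15.1% fell. In WT cells the same change was held within 15 points by the choice of exons. The 2 genotypes were thus not set against each other here. The called exons that rose most in slow/slow cells were those of Ktn1 (42.1 ± 2.96 points) and of Eme1, an endonuclease subunit gene (57 nucleotides, chr11:94510777-94510833, minus strand, mm9). The Eme1 exon was at 22.4, 16.7 and 17.1 in slow/slow ESCs and 56.0, 68.5 and 58.1 in slow/slow neurons, a rise of 42.1 ± 4.30 points. The largest called falls were in Add3, by 46.1 ± 2.22 points, and Fn1, by 34.0 ± 3.33 points.

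Exons could differ one way in NPCs and the other way in neurons. Of the 34 exons called at both stages, 16 had the same direction and 18 opposite directions, and 17 of the 18 were less included in slow/slow NPCs and more included in slow/slow neurons. Opposite directions thus made up 52.9% of the 34. They made up 57.1% of the 98 alternative exons and 54.2% of the 131 exons of any kind called at both stages. Less inclusion in slow/slow NPCs with more in slow/slow neurons was seen for 17 of the 34. The same order was seen for 46 of the 98 and 59 of the 131. Both shares were thus near those of exons in general, and this order was not particular to these exons. The genotype by stage interaction between neurons and NPCs, added after this had been seen, passed an FDR of 0.05 in limma for 112 of 415 exons, 90 of them higher in neurons, against 4.91% of all exons tested. Without read-based weights 33 of the 415 exons passed. The share of alternative exons that passed this test is not given here. The WT neuron samples in this test had also helped to choose the exons. The 17 exons had median PSI values of 51.3, 76.1, 65.6 and 50.4 in WT ESCs, NPCs, PSA-NCAM+ cells and neurons, and of 54.3, 52.0, 54.8 and 69.2 in slow/slow cells. The calls in NPCs and neurons chose these 17 exons, and the WT neuron values were held near the WT ESC values. The medians are thus a description. By them, WT cells were highest at the NPC stage and slow/slow cells at the neuron stage.

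The Ktn1 exon, chosen in the same way, is given here in single samples. It was 52.3 points lower in slow/slow NPCs, as given above, and in neurons it was at 40.6, 36.9 and 38.4 in WT and 67.7, 67.8 and 59.2 in slow/slow cells, a difference of 26.2 ± 3.05 points (limma adjusted p = 0.000855). The exon of Ivd, which encodes an enzyme of leucine breakdown (chr2:118703397-118703501, plus strand, mm9), was at 72.6, 82.2 and 88.3 in WT and 51.9, 50.2 and 45.3 in slow/slow NPCs. In neurons it was at 36.9, 37.6 and 36.2 in WT and 63.9, 62.1 and 51.9 in slow/slow cells. The 2 differences, -31.9 ± 4.97 and 22.4 ± 3.75 points, were both larger than the spread between replicates. The Kif23 exon was 23.9 ± 1.69 points lower in slow/slow NPCs and 18.9 ± 2.00 points higher in slow/slow neurons, where it stood at 68.9, 67.4 and 71.3 against 49.4, 48.1 and 53.6 in WT.

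The Sec16a exon lies in the gene of a scaffold of endoplasmic reticulum exit sites (chr2:26269199-26269258, minus strand, mm9). It was at 52.5, 45.4 and 46.7 in WT and 28.0, 24.8 and 32.1 in slow/slow NPCs, and at 26.8, 27.9 and 27.8 in WT and 53.2, 39.7 and 40.6 in slow/slow neurons. In Huwe1, a ubiquitin ligase gene (chrX:148293998-148294231, plus strand, mm9), the exon differed by -15.8 ± 4.22 points in NPCs and 15.9 ± 5.91 points in neurons. The Huwe1 differences were called by the posterior rule but had limma adjusted p values of 0.0508 and 0.114. The exon of Add3, which encodes the membrane skeleton protein gamma-adducin (chr19:53318800-53318895, plus strand, mm9), ran against the other 17. It was at 69.1, 77.5 and 70.3 in WT and 92.5, 87.8 and 91.8 in slow/slow ESCs, and at 67.1, 65.7 and 68.7 in WT and 47.3, 45 and 41.5 in slow/slow neurons. The Add3 differences from ESCs to neurons were 18.4 ± 3.00, 23.0 ± 3.07, 23.1 ± 8.08 and -22.5 ± 1.89 points.

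**Figure D3:**
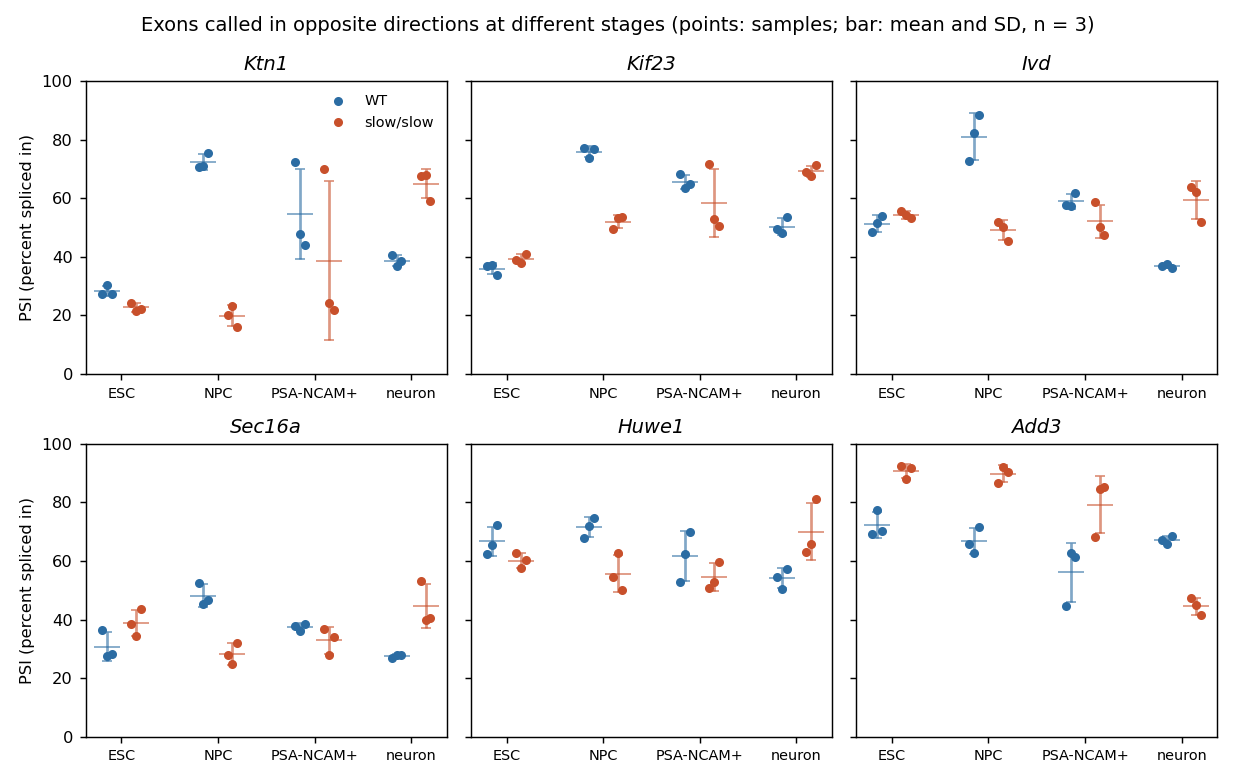
PSI (y axis, percent) at the 4 stages (x axis) for 6 exons called in opposite directions at different stages. Points are samples of WT or slow/slow cells, and bars give the mean and SD of 3 samples. In Ktn1, Kif23, Ivd, Sec16a and Huwe1 the WT samples lie above the slow/slow samples in NPCs and below them in neurons, and in Add3 the order is the reverse.

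In ESCs the WT samples of the comparison had also helped to choose the exons. Of 440 exons tested, 15 were more included and 21 less included in slow/slow cells, a total of 36 or 8.18%, against 0.81% of all exons (0.372% more and 0.437% less included), 9.53% of all alternative exons and 6.28% of the frame-shifting stable exons. Of the alternative exons 4.81% were more and 4.73% less included, and of the frame-shifting stable exons 22 and 8 were. The median difference was 0.48 points over the 440 exons. The limma fit gave 15 exons at an FDR of 0.05 and 10 points, against 0.342% of all exons. The largest falls among called exons were in Bptf, Syne2 and Senp6. Exons that could not be tested are left out of these orders at every stage. Senp6 encodes a protease that removes SUMO chains, and its exon of 21 nucleotides (chr9:79946693-79946713, plus strand, mm9) was at 66.7, 63.5 and 77.1 in WT and 33.1, 34.1 and 32.9 in slow/slow ESCs. The difference was -35.7 ± 4.13 points in ESCs and -36.0 ± 2.67 points in NPCs, and the exon was not called in PSA-NCAM+ cells or neurons. The largest called rises were in Rai14, Max and Galnt7. Galnt7 encodes a glycosyltransferase that starts O-linked chains, and its exon (chr8:60021632-60021814, minus strand, mm9) was at 50.5, 54.5 and 48.5 in WT and 73.8, 74.5 and 63.6 in slow/slow ESCs. In ESCs limma did not pass this Galnt7 rise (adjusted p = 0.121), and the exon was also called more included in NPCs. The other Galnt7 exon among the 598 was called less included in slow/slow cells at the same 2 stages, ESCs and NPCs.

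The PSI values of PSA-NCAM+ cells had no part in the choice of exons, while their read coverage had. At this stage 8 of 472 exons were more included and 34 less included in slow/slow cells, a total of 42 or 8.90%. The share was 0.945% of all exons (0.233% more and 0.712% less included), 9.67% of all alternative exons and 5.97% of the frame-shifting stable exons. Of the alternative exons 2.83% were more and 6.84% less included, and of the frame-shifting stable exons 9 and 20 were. The median difference over the 472 exons was -1.86 points, and -2.67 points without the libraries numbered 1. Without the libraries numbered 1 of both genotypes, 18 exons were more and 73 less included, 91 in all, against 2.23% of all exons, and 40 of the 42 calls were kept. Without the slow/slow library numbered 1 alone, 85 exons were called, against 1.97% of all exons. The limma fit gave 0 exons at an FDR of 0.05 and 10 points, with 59 at an unadjusted p under 0.05 and 10 points, against 0.00833% of all exons called. When limma also fitted the replicate number as a block, 34 exons passed, against 0.645% of all exons.

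Among the called exons, those of Pcnt, Syne2 and Nfya fell most in slow/slow PSA-NCAM+ cells, and those of Cdyl and Rai14 were among the ones that rose most. Pcnt encodes the centrosomal scaffold pericentrin, and its exon of 21 nucleotides (chr10:75866369-75866389, minus strand, mm9) was at 77.1, 56.9 and 72.1 in WT and 38.5, 30.0 and 27.3 in slow/slow cells. The exon of Cdyl, a chromodomain gene (chr13:35881970-35882044, plus strand, mm9), was at 19.9, 25.1 and 18.4 in WT and 33.5, 56.4 and 45.5 in slow/slow cells. The Nfya exon showed how library 1 stood apart, with 73.2, 76.4 and 81.7 in WT and 59.0, 33.9 and 34.0 in slow/slow cells. Bptf was at 53.8 in slow/slow library 1 and at 19.9 and 19.4 in the other 2, so that its difference of -32.8 ± 13.0 points had a posterior of 0.948 and was not called. Without the libraries numbered 1 the Bptf exon was called, at -44.02 points. The differences without them were -35.88 points for Pcnt, -45.09 for Nfya, -40.68 for Syne2, -25.35 for Clstn1 and -15.28 for Mark2. For exons higher in slow/slow cells they were 29.18 points for Cdyl, 25.14 for Rai14, 23.44 for Max, 22.87 for Add3, 19.31 for Phkb and 11.05 for Raly. All 11 of these exons were called with and without the libraries.

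From ESCs to PSA-NCAM+ cells 29 of 461 exons rose and 16 fell in WT cells, 45 in all, against 1.53% of all exons (0.74% rising and 0.793% falling). In slow/slow cells 14 of 447 rose and 24 fell, 38 in all, against 1.67% of all exons (0.352% and 1.32%). The shares of all alternative exons were 14.5% (9.34% rising and 5.2% falling) and 11.7% (4.71% and 7.03%). Without WT PSA-NCAM+ library 1 the WT count was 48 (34 rising, 14 falling), against 1.4% of all exons, and without slow/slow library 1 the slow/slow count was 47 (16 and 31), against 1.84%. At an FDR of 0.05 and 10 points limma gave 7 and 2 exons for these changes, against 0.195% and 0.0904% of all exons. For the other changes from ESCs it gave 83 exons in WT NPCs (1.84% of all exons), 4 in slow/slow NPCs (0.227%) and 75 in slow/slow neurons (3.33%). Of the called exons Pcnt and Kif23 rose most in WT cells, by 27.7 ± 7.13 and 29.6 ± 1.71 points. Among the called exons that fell most was that of Cask, the gene of a membrane-associated scaffold kinase (chrX:13129499-13129567, minus strand, mm9), and it rested on uneven replicates. It was at 44.9, 72.8 and 68.1 in the WT PSA-NCAM+ samples, with library 1 the lowest.

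Some exons differed in 1 direction throughout. Of the 68 exons called at 2 or more stages 49 (72.1%) had 1 direction, against 71.9% of the alternative exons and 73.6% of all exons called that often, and 14 had 1 direction at 3 or 4 stages. Of 24 exons called in both ESCs and NPCs 23 had the same direction, as did all 26 called at both the NPC and the PSA-NCAM+ stage. Among alternative exons 97.7% and 98.9% of such exons did. Syne2 encodes nesprin-2, a protein that links the nuclear envelope to the cytoskeleton, and its exon of 69 nucleotides (chr12:77201015-77201083, plus strand, mm9) was less included in slow/slow cells at all 4 stages. In neurons it was at 82.5, 68.3 and 73.3 in WT and 40.3, 30.7 and 40.5 in slow/slow cells. From ESCs to neurons its differences were -44.0 ± 5.77, -26.4 ± 5.54, -36.2 ± 7.67 and -37.5 ± 5.25 points. The one in NPCs did not pass in limma (adjusted p = 0.053). The Nfya exon was also lower at all 4 stages, by 35.5 ± 1.85 points in ESCs and by 24.6 ± 4.49 points in neurons. The Bptf exon was lower by 45.2 ± 2.51 points in ESCs, where slow/slow cells had 18.8, 22.4 and 18.03 against 69.1, 62.0 and 63.8 in WT, and by 22.8 ± 4.65 points in neurons.

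Rai14 encodes an actin-associated ankyrin repeat protein, and its exon of 87 nucleotides (chr15:10519014-10519100, minus strand, mm9) was more included in slow/slow cells at all 4 stages. In ESCs it was at 42.0, 42.7 and 46.2 in WT and 71.2, 66.4 and 66.6 in slow/slow cells. Its differences ran from 17.99 ± 2.29 points in neurons to 24.5 ± 5.39 points in NPCs. Max encodes the dimerisation partner of MYC, and its exon of 27 nucleotides (chr12:78062250-78062276, minus strand, mm9) was at 25.3, 25.1 and 26.0 in WT and 48.4, 44.8 and 58.9 in slow/slow neurons. The Max differences were 24.1 ± 3.60, 25.5 ± 2.67, 15.5 ± 5.63 and 25.2 ± 4.26 points, in the order of the stages, and the PSA-NCAM+ one was called in only 2 of 6 repeats that each left out 1 sample. Raly, an RNA-binding protein gene of the hnRNP family (chr2:154646748-154646819, plus strand, mm9), rose at all 4 stages by 11.3 ± 2.68 to 18.7 ± 2.10 points. Phkb encodes a regulatory subunit of phosphorylase kinase (chr8:88366925-88367011, plus strand, mm9). Its exon rose at the last 3 stages, by 20.4 ± 3.88, 17.1 ± 1.73 and 10.5 ± 2.81 points. The neuron rise did not pass in limma (adjusted p = 0.066) and was called in 4 of 6 repeats that each left out 1 sample.

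The exons of Clstn1 and Mark2 had low inclusion in both genotypes. Clstn1 encodes a membrane adaptor of kinesin cargo, and its exon of 30 nucleotides (chr4:149000196-149000225, plus strand, mm9) was at 27.4, 25.7 and 26.0 in WT and 4.69, 3.02 and 4.30 in slow/slow NPCs. It was lower in slow/slow cells at the first 3 stages, by 11.3 ± 1.52, 22.4 ± 0.731 and 20.8 ± 4.12 points. Mark2 encodes a microtubule affinity-regulating kinase, and its exon of 27 nucleotides (chr19:7354476-7354502, minus strand, mm9) was at 19.9, 22.6 and 19.3 in WT and 3.89, 3.93 and 5.61 in slow/slow ESCs. It was lower by 16.1 ± 1.16, 27.4 ± 1.96 and 14.7 ± 2.32 points at the same stages.

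**Figure D4:**
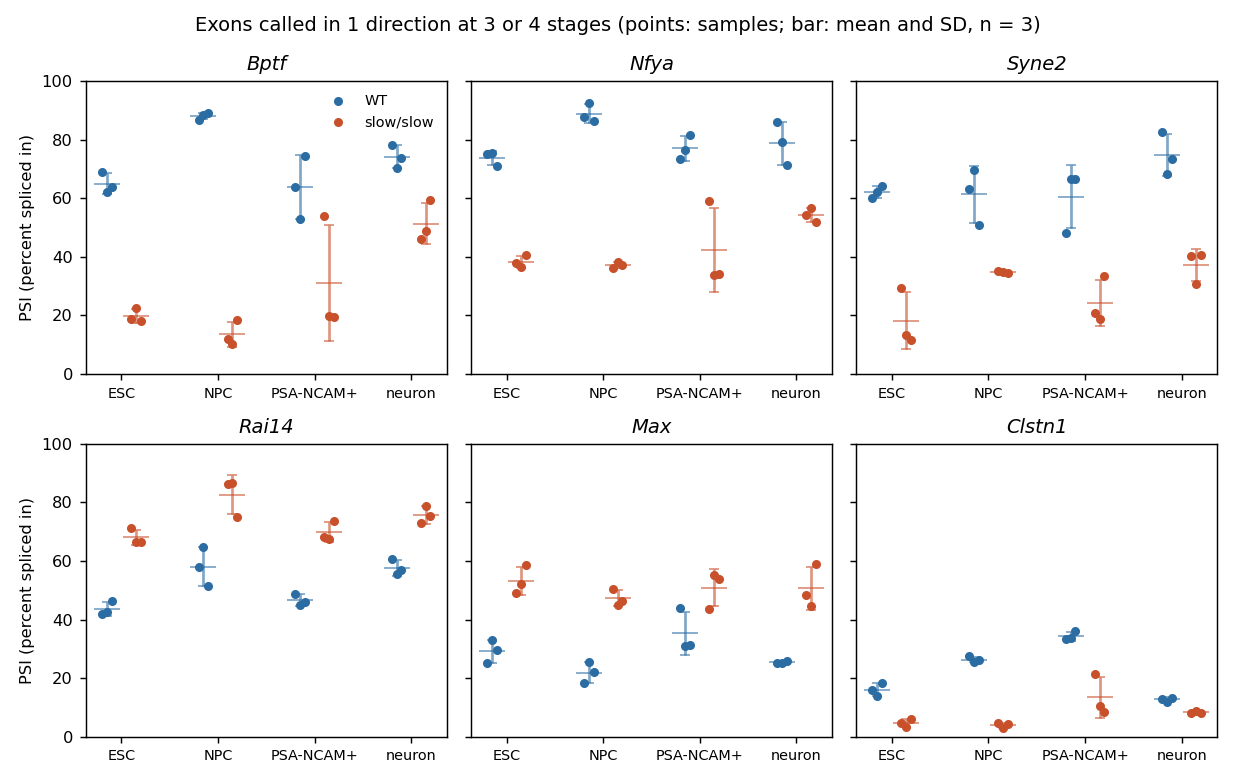
PSI (y axis, percent) at the 4 stages (x axis) for 6 exons called in 1 direction at 3 or 4 stages. Points are samples of WT or slow/slow cells, and bars give the mean and SD of 3 samples. Bptf, Nfya, Syne2 and Clstn1 are lower in slow/slow cells, with 88.1 against 13.6 for Bptf in NPCs, and Rai14 and Max are higher.

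Among the 62 exons that stayed within 5 points between genotypes at every stage, the ones with most reads were in Pcbp2, Srsf7 and Ndufv3. Pcbp2 encodes a poly(C)-binding protein, and its exon (chr15:102316379-102316471, plus strand, mm9) was between 84.9 and 89.7 in all 24 samples. It was higher in slow/slow cells by 1.72 ± 0.495 to 3.46 ± 0.491 points, a difference below 10 points that limma passed in ESCs (adjusted p = 0.0256), NPCs (0.0124) and neurons (0.00956). The exon of Srsf7, an SR splicing factor gene (chr17:80601509-80601544, minus strand, mm9), differed by at most 1.78 ± 0.517 points. The exon of Ndufv3, a gene of respiratory complex I (1092 nucleotides, chr17:31664255-31665346, plus strand, mm9), lay between 6.91 and 16.4 in all samples.

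Of 7 listed genes, Bptf, Scrib, Pbrm1 and Mll5 had an exon among the 598. Scrib is a cell polarity gene, and its exon (chr15:75879887-75879970, minus strand, mm9) was at 21.2, 21.6 and 17.3 in WT and 10.3, 10.6 and 10.8 in slow/slow NPCs. That difference of -9.48 ± 1.38 points was under the 10-point limit, while limma passed it (adjusted p = 0.0137). The exons of the remodeller subunit gene Pbrm1 and of Mll5, a gene of the trithorax group, were not called at any stage, with differences of 0.703 ± 4.03 to 7.69 ± 2.76 points and of -5.75 ± 3.69 to -2.37 ± 1.41 points.

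By the role of the host gene, chromatin and transcription genes held 60 of the 598 exons, RNA processing genes 34, genes of kinases, phosphatases and GTPase regulators 27, membrane traffic genes 25 and cytoskeleton and adhesion genes 24. In NPCs 1 exon of RNA processing genes rose and 7 fell of 22 tested, with 2 and 9 of 51 for chromatin and transcription, 2 and 6 of 23 for kinases and related genes, 1 and 5 of 19 for membrane traffic and 2 and 3 of 20 for cytoskeleton and adhesion. The group medians ran from -5.16 to -0.26 points, around the -2.74 points of all 450. In neurons, where 60 rose and 23 fell of all 453, 4 exons of RNA processing genes rose of 21 tested and none of the 21 fell, and for membrane traffic 4 of 20 rose and none of the 20 fell. For chromatin and transcription 8 rose and 7 fell of 49, for kinases and related genes 2 rose and 1 fell of 23, and for cytoskeleton and adhesion 1 rose and 3 fell of 21. The group medians in neurons ran from -2.14 points for cytoskeleton and adhesion to 4.11 points for membrane traffic, around 1.06 points for all 453. In ESCs and PSA-NCAM+ cells 4 or fewer exons of any of these groups were called, apart from 5 of 25 in kinases and related genes, all less included, in PSA-NCAM+ cells. Without the libraries numbered 1, in kinases and related genes 2 of 25 rose and 10 fell there, in chromatin and transcription 1 of 54 rose and 5 fell, in cytoskeleton and adhesion 2 of 21 rose and 4 fell, and in RNA processing 2 of 21 fell.

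A few genes held more than 1 called exon. In Btrc, which encodes a substrate receptor of a ubiquitin ligase, 2 of 3 exons rose in slow/slow NPCs and 2 rose in slow/slow neurons. In Pcm1, a centriolar satellite gene, both exons fell in slow/slow neurons, and in Ktn1 both fell in slow/slow NPCs. Exons of 1 gene share transcripts and are not independent.

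Expression of the host genes was tested with edgeR on gene counts. Of 516 host genes tested, 132 were higher and 89 lower in slow/slow ESCs at an FDR of 0.05, 187 and 119 in NPCs, 200 and 90 at the PSA-NCAM+ stage and 111 and 159 in neurons. These are 42.8%, 59.3%, 56.2% and 52.3% of the host genes, against 40.4%, 56.7%, 56.7% and 51.9% of all genes tested. Of all genes, 18.5% were higher and 21.9% lower in slow/slow ESCs, 29.3% and 27.4% in NPCs, 28.6% and 28.1% at the PSA-NCAM+ stage and 23.4% and 28.4% in neurons. Host genes that held a called exon had changed in 51.4%, 56.0%, 59.5% and 54.3% of cases at the 4 stages, and those with tested exons but no called one in 39.8%, 60.8%, 53.1% and 53.2%. Without the libraries numbered 1, 250 host genes were higher and 117 lower at the PSA-NCAM+ stage, against 68.3% of all genes changed. At that FDR 10, 21, 19 and 16 of the 516 host genes changed by over 2-fold at the 4 stages. The share of all genes that changed by that much is not given here.

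Levels of splicing regulators are given beside the exon results. Of 27 regulators tested with edgeR, 7 were higher and 6 lower in slow/slow ESCs, 14 and 2 in NPCs, 18 and 3 at the PSA-NCAM+ stage, and 4 and 10 in neurons. These are 48.1%, 59.3%, 77.8% and 51.9% of the 27, against 40.4%, 56.7%, 56.7% and 51.9% of all genes tested. Without the PSA-NCAM+ libraries numbered 1, 19 regulators were higher and 4 lower (85.2%). Ptbp1, which encodes a repressor of many neuronal exons, was at 624, 660 and 616 CPM in WT and 954, 909 and 939 CPM in slow/slow NPCs. Its neuronal paralogue Ptbp2 was at 45.8, 43.9 and 44.4 CPM in WT and 88.4, 106 and 94.6 CPM in slow/slow NPCs. Mbnl2, the gene of an RNA-binding protein that regulates exons during differentiation, was at 104, 91.7 and 91.5 CPM in WT and 32.1, 32.2 and 30.6 CPM in slow/slow NPCs. In neurons Nova1 was at 322, 316 and 301 CPM in WT and 136, 132 and 127 CPM in slow/slow cells, and Celf4 at 383, 350 and 354 and at 125, 135 and 135 CPM. Both encode RNA-binding proteins of neurons that regulate splicing. The part of these levels and of the marker differences in the exon results was not tested.

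Flanking introns were compared by the length to the nearest neighbouring exon, as a description. In NPCs the median summed length of both introns was 3543 bases for the 97 exons less included in slow/slow cells (quartiles 1348 and 5157), 5008 bases for the 31 more included and 5244 bases for the 322 not called. In neurons it was 3092 bases for the 60 more included (quartiles 963 and 20580), 2922 bases for the 23 less included and 4688 bases for the 370 not called. The median was thus lower than that of the uncalled exons for both directions at both stages, but only slightly for the more included exons in NPCs. The quartiles overlapped widely in every case. In ESCs the medians were 5008, 5904 and 4405 bases for exons more included, less included and not called. In PSA-NCAM+ cells they were 24392 bases for the 8 exons more included, 4646 bases for the less included and 4296 bases for those not called. Without the libraries numbered 1 the medians there were 4401 bases for 18 exons more included, 3545 for 73 less included and 4629 for 381 not called, so the high value for exons more included was not seen. Median exon lengths in NPCs were 87, 105 and 96 nucleotides for exons more included, less included and not called.

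**Figure D5:**
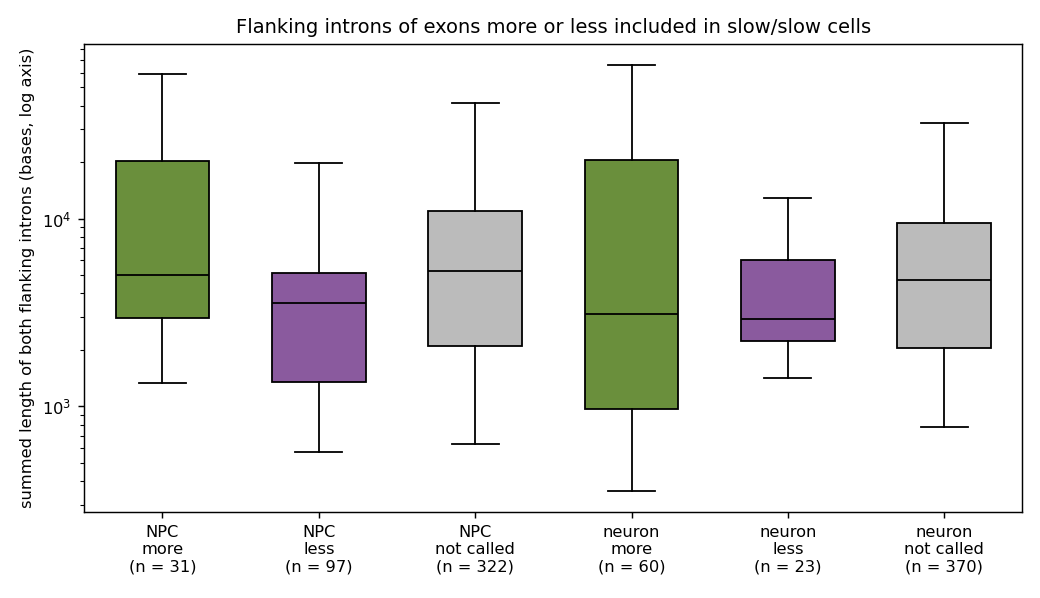
Summed length of both flanking introns (y axis, bases, log axis) of exons more included, less included or not called in slow/slow cells, in NPCs (left) and neurons (right). Boxes give the quartiles and the median, and whiskers the 5th and 95th percentiles. The median is 3543 bases for the 97 exons less included in NPCs and 5244 bases for the 322 not called there.

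Exons at the edge of the rule differed little from those beyond it. The members with the lowest WT ESC PSI were in Ccnl2 and Zcchc6, both at 10.0, and the exons just outside were in Eya3 at 9.997 and Enah at 9.92. At the upper edge Zfp639 at 90 and 2210018M11Rik at 89.96 were inside, and Mettl10 at 90.003 and Porcn at 90.03 outside. For the change from WT ESCs to WT neurons, Sdccag3 at -14.99 and Phactr4 at -14.88 points were inside, and Ubqln1 at -15.13 points was outside.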

How the data were processed

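Libraries had been made with a stranded poly(A) kit from 3 independent differentiation experiments, per the study's methods, and the authors mapped the reads to mm9 and quantified splicing with vast-tools. The deposited splicing table holds PSI in percent for each event and sample, with quality scores and corrected inclusion and exclusion reads. The deposited gene counts are raw whole numbers per gene and sample. The authors' RPKM means, log2 fold changes, p-values adjusted as FDR, and calls were not used, while 0 of the per-sample value columns remained without a use.

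The exons and gene lists were chosen with earlier results of these data known. Exons were tested where the coverage score was SOK, OK or LOW and junction balance OK or B1 in the 6 samples compared. The beta posteriors of the 3 replicates were pooled, and a call needed 10 points and a posterior above 0.95. limma 3.58.1 fitted the log-odds (offset 0.5) with read-based weights over all exons tested, and Benjamini-Hochberg FDR is given. Each comparison of 2 groups was fitted on its 6 samples, and the interactions were fitted on all 24 samples. Beside limma counts the share given is that of all exons, not of alternative exons. Host genes were tested with edgeR 4.0.16 (TMM, quasi-likelihood). Both were tested on simulated data. The reads behind a PSI had a median of 220 and ran from 16 to 20956 over members and samples. Named exons were the 3 largest rises and falls at each stage among called, non-overlapping exons, up to 10 called in 1 direction at 3 or 4 stages, up to 6 in opposite directions, the 2 largest rises and falls in 3 stage changes, the 3 most covered steady exons, the exons at each threshold, and 7 listed genes where they were members. A few exons that this rule names are not reported here. The main calls and fits used no pairing of samples. Between genotypes, same-numbered samples deviated together at gene level only in PSA-NCAM+ cells (correlations 0.54, 0.4546 and 0.4015). At exon level these correlations were lower, at 0.1437, 0.033 and 0.1578. Fits with the replicate number as a block are given as alternatives. Alternatives were another tool, a 15-point limit, other filters and membership limits, and leaving out each sample.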

Additional observations from a re-analysis of the deposited data

Results flagged for a closer look

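Between neurons and NPCs the difference between slow/slow and WT cells changed for 112 of the 415 exons with an interaction test (limma FDR under 0.05), against 4.91% of all exons tested. In 90 of them the slow/slow effect was more positive in neurons, and without read-based weights 33 exons passed. Between NPCs and ESCs it changed for 25 of the 415 exons, against 0.484% of all exons, and 0 passed without weights, with 141 at an unadjusted p under 0.05 in the weighted fit. The WT neuron and WT ESC samples in these tests had helped to choose the exons, and both tests share the NPC libraries. Of all exons 87.6% stayed within 5 points between genotypes at every stage. The shares of alternative exons that passed these tests are not given here, so the counts are not read as particular to these exons.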

How the results depend on the processing

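A limit of 15 in place of 10 points left 20, 79, 24 and 37 exons between genotypes in ESCs, NPCs, PSA-NCAM+ cells and neurons. For the change from ESCs it left 55 exons in WT NPCs, 21 in WT PSA-NCAM+ cells, 6 in slow/slow NPCs, 15 in slow/slow PSA-NCAM+ cells and 46 in slow/slow neurons. Membership within 10 points left 23 calls in ESCs and 47 in neurons, and a WT ESC PSI of 20 to 80 left 85 in NPCs, both with fewer members. With limma the genotype counts were 15 in ESCs and 0 in PSA-NCAM+ cells, and the changes from ESCs numbered 7 (WT PSA-NCAM+), 4 (slow/slow NPC) and 2 (slow/slow PSA-NCAM+). With a replicate block limma gave 20 exons in ESCs, 34 in PSA-NCAM+ cells, and 0, 0, 19 and 42 for the changes to WT PSA-NCAM+, slow/slow NPC, slow/slow PSA-NCAM+ and slow/slow neuron cells. The block moved no other exon count of the stages by over 1.5 times. Outside PSA-NCAM+ cells the gene-level correlations of same-numbered samples between genotypes ran from -0.0841 to 0.0677. Whether such samples came from 1 differentiation experiment is not stated in the sample labels. Without both PSA-NCAM+ libraries numbered 1 there were 91 calls. The planned interaction of neurons against ESCs holds the WT change that chose the exons, so nothing is read from it: it passed 12 exons, 0 without weights, 21 with the block and 38 in the 12 ESC and neuron samples alone. That of neurons against NPCs (112) gave 33 without weights, and that of NPCs against ESCs (25) gave 0 without weights and 43 with the block. Changed host genes in PSA-NCAM+ cells fell from 290 to 108 when only the 6 samples of that stage were fitted. The cause of these shifts was not tested.

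Leaving out each sample in turn gave 34 to 45 calls in ESCs, 131 to 138 in NPCs, 39 to 85 in PSA-NCAM+ cells and 78 to 87 in neurons. For the changes from ESCs it gave 107 to 123 (WT NPC), 47 to 67 (WT PSA-NCAM+), 18 to 25 (slow/slow NPC), 39 to 48 (slow/slow PSA-NCAM+) and 79 to 90 (slow/slow neuron). For the interactions it gave 5 to 12 (neurons against ESCs), 90 to 110 (neurons against NPCs) and 14 to 20 (NPCs against ESCs), and for host genes 193 to 198, 274 to 286, 247 to 361 and 229 to 244 at the 4 stages. The 85 calls came without slow/slow PSA-NCAM+ replicate 1, the 5 without WT ESC replicate 1 and the 14 without WT NPC replicate 2 or slow/slow NPC replicate 1. In all, 46 of the alternative values moved by over 1.5 times and 165 did not, nor did 8 intron medians of called and uncalled exons. The coverage and balance filters left 116 of the 598 exons untested at every stage.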
